A study of Homo sapiens with 6 samples.

Results

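The 10 genes described here encode 9 receptor kinases of the MET, FGF receptor, insulin receptor and collagen receptor families and the related pseudokinase PTK7. They were taken by symbol from a table of 60612 genes, and all 10 had 1 row each. The 2 groups were HCT116 cells treated with PLOD3 siRNA for 2 days (3 samples) and HCT116 cells treated with the control siRNA si NC for 2 days (3 samples). HCT116 is an established epithelial line from a human colorectal cancer. Both groups were plain cultures of this 1 line without a transgene, and neither the number nor the sequence of the siRNAs is given in the sources used here. The series asks what PLOD3, which hydroxylates and glycosylates collagen lysines, does in colorectal cancer progression.

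Receptor tyrosine kinases span the cell membrane, bind a ligand outside the cell and phosphorylate tyrosines inside it, which recruits docking proteins and starts the MAPK and PI3K pathways. MET binds hepatocyte growth factor, MST1R (also called RON) binds macrophage stimulating protein, FGFR1 to FGFR4 bind fibroblast growth factors, and INSR and IGF1R bind insulin and the insulin-like growth factors. DDR1 is bound and activated by collagen itself. PTK7 has a kinase domain without catalytic activity and acts in Wnt signalling and planar cell polarity.

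The estimated counts summed to between 55416555 and 71736017 in PLOD3 siRNA and between 57457602 and 76802428 in si NC. About 4 units were taken to stand for 1 read pair, because low counts piled up at multiples of 4, and this was not tested. Counts of the receptor genes lay between 537 and 27898 per sample, or about 134 to 6974 read pairs on that assumption. PLOD3, the targeted gene, was lower in PLOD3 siRNA, at 55.1% of its si NC mean (log2 fold change -0.85, SE 0.107, edgeR adjusted p = 0.0035). The 12 colon epithelial markers summed to 581 to 658 FPKM in PLOD3 siRNA and 709 to 755 in si NC. Of the 9 tested, 5 were called lower, against 19.3% of all tested genes: CLDN3 (log2 -1.22), KRT20 (-1.01), CDH1 (-0.76), KRT18 (-0.46) and KRT19 (-0.23). After the GC correction described below, 3 of the 9 were called lower, against 14.5% of all tested genes. KRT18 lost its call there (edgeR adjusted p = 0.0652) and the sign of KRT19 turned (log2 0.0955, adjusted p = 0.252). When single samples were dropped in turn, CDH1 kept its call in 2 of 6 cases and KRT19 in 0. Of the 12 colon epithelial markers, EPCAM (101 ± 4.39 FPKM in PLOD3 siRNA and 94.7 ± 3.54 in si NC, SD, n = 3 each) and the keratins KRT8, KRT18 and KRT19 were strongly present, whereas CDX1 was listed without reads and VIL1 and LGALS4 stood close to that. Fibroblast markers summed to 1.49 to 1.88 FPKM in PLOD3 siRNA and 2.59 to 2.86 in si NC, most of it COL1A1, which was called lower (log2 -0.50), with DCN, LUM, FAP and PDPN listed without reads in all samples. COL1A1 lost its call after the GC correction (log2 -0.19, edgeR adjusted p = 0.226). Leukocyte markers summed to 1.68 to 1.82 FPKM in PLOD3 siRNA and 0.902 to 1.72 in si NC, most of it CD68, with PTPRC listed without reads. Endothelial markers summed to 2.36 to 2.81 FPKM in PLOD3 siRNA and 2.45 to 2.82 in si NC, nearly all ESAM, with CDH5 listed without reads. The part of these marker levels in the results below was not tested. Whether the replicates came from different cultures is not in the labels. The p-values therefore reflect the scatter among these 6 samples, part or all of which may be technical.

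The receptor kinase genes were lower in PLOD3 siRNA. All 10 passed the filter of a mean FPKM of at least 1 over the 6 samples (FPKM, fragment counts scaled to transcript length and to the mapped fragments of the sample). IGF1R reached it only through si NC, with a mean of 0.857 FPKM in PLOD3 siRNA and 1.42 in si NC. Of the 10, 8 were called lower by edgeR's quasi-likelihood test at a Benjamini-Hochberg adjusted p under 0.05 and 0 were called higher. The background was 19.3% of the 12000 tested genes called lower and 16.2% called higher. No receptor gene was higher at an unadjusted p under 0.05, and DESeq2 and limma on log2(FPKM + 1) also called 0 higher, against 8 and 7 called lower. The median log2 fold change was -0.66 for the 10 genes and 0.00 for all tested genes. The called genes stood between 50.4% (PTK7) and 65.9% (MST1R) of their si NC means, and the remaining genes, MET and FGFR1, stood at 85.9% and 89.3%. In all 10 genes the FPKM of the groups did not overlap, a pattern that 27.5% of tested genes shared with PLOD3 siRNA lower and 24.6% with PLOD3 siRNA higher. After rescaling to TPM (FPKM brought to the same total in each sample) the groups overlapped for MET and FGFR1, and 20.6% of tested genes did not overlap with PLOD3 siRNA lower. With TPM in limma, 62.8% of all called genes were higher in PLOD3 siRNA, compared with 45.6% in edgeR, and 7 of the 10 receptors were called lower. Less RNA per cell and fewer cells that hold a transcript cannot be told apart in these bulk samples. For each receptor gene the two-sided exact permutation test over samples gave p = 0.1, which is the smallest p that groups of 3 allow.

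**Figure D1:**
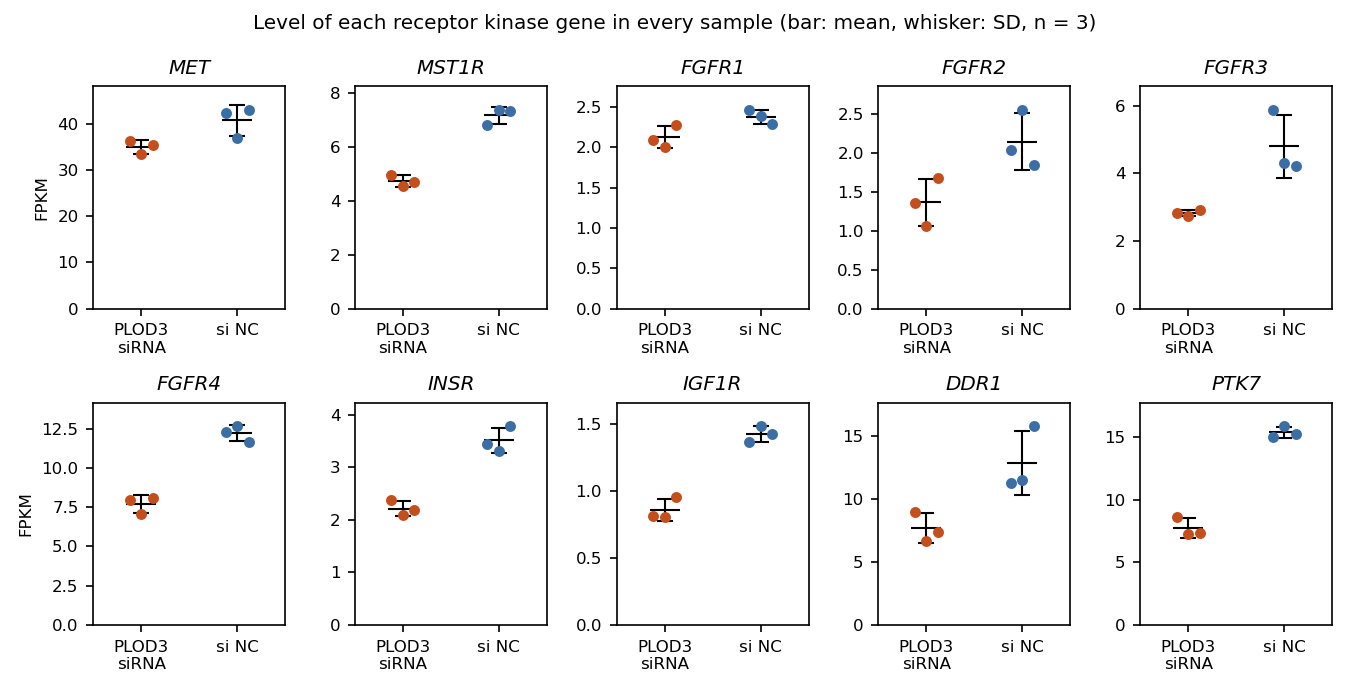
FPKM of the 10 receptor genes in each sample, PLOD3 siRNA (orange) left of si NC (blue); points are samples, the bar is the mean and the whisker the SD (n = 3). The groups are separated in every panel, most widely for PTK7, at 50.4% of its si NC mean, and least for FGFR1, at 89.3%.

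Transcript GC content moved with the change across the whole table, and this bears on every count above. Tested genes were divided by GC content into 5 classes of nearly equal size. In the class with the highest GC content (58.6% to 78.7%), 40.6% were called lower and 2.38% higher, with a median log2 fold change of -0.33. In the lowest class (23.1% to 41.4%), 2.51% were called lower and 33.4% higher, with a median of 0.28. MST1R, FGFR3, FGFR4, DDR1 and PTK7 fell in the highest class, FGFR1 in the next (28.6% called lower), FGFR2, INSR and IGF1R in the middle (17.2%) and MET in the second lowest (7.78%). When a loess trend on GC was removed from each sample, edgeR called 7 of the 10 lower and 0 higher, against a background of 14.5%, and the median of the 10 was -0.43. With GC and transcript length both removed, 5 were called lower, against 13.6% of tested genes. Whether GC content itself plays a part in the receptor changes was not tested beyond these corrected values, which are given below beside each gene.

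**Figure D2:**
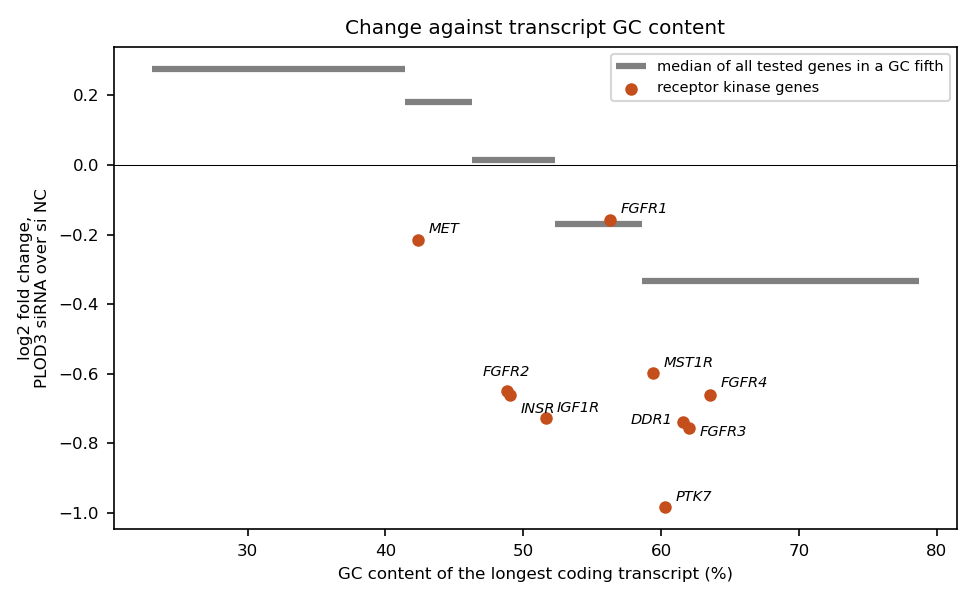
Log2 fold change (PLOD3 siRNA over si NC, vertical axis) against GC content of the longest coding transcript (horizontal axis, %). Grey bars are medians of all tested genes in 5 GC classes, at -0.33 in the highest class and 0.28 in the lowest; orange points are the 10 receptor genes, of which 9 lie below the bar of their class and FGFR1 lies close to it.

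**Figure D3:**
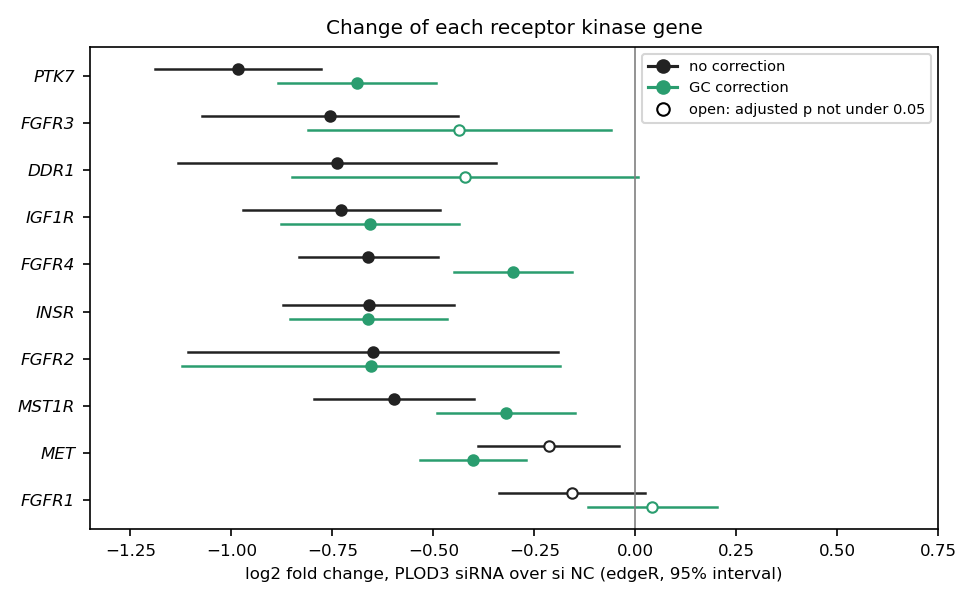
Log2 fold changes of PLOD3 siRNA over si NC from edgeR with 95% intervals, without correction (black) and after the GC correction (green); open points had an adjusted p of 0.05 or more. INSR, IGF1R and FGFR2 stayed between -0.65 and -0.73 under both, PTK7, FGFR4, MST1R, FGFR3 and DDR1 moved towards 0, and MET moved away from it.

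Promoters of the receptors are shown because most of these genes were lower together. RefSeq promoter sequences (GRCh38.p14) were matched for 9 of the 10 genes by symbol; FGFR1 was not among them. The 150 bases before the annotated start of 5 genes are printed 5′ to 3′ on the gene's own strand, with GC boxes in capitals (GGGCGG on either strand, overlaps joined). They are those of PTK7 and DDR1, both called lower and both with GC-rich transcripts, of INSR and IGF1R, called lower with transcripts of middling GC content, and of MET, which was not called.
PTK7 (chr6:43076164-43076313, plus strand): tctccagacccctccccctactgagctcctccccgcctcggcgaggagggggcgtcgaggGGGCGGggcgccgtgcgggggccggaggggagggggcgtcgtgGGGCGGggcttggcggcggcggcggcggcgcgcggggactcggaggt
DDR1 (chr6:30880820-30880969, plus strand): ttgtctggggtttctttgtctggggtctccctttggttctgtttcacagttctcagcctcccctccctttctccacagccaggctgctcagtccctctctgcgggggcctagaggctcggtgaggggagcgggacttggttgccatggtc
INSR (chr19:7294415-7294564, minus strand): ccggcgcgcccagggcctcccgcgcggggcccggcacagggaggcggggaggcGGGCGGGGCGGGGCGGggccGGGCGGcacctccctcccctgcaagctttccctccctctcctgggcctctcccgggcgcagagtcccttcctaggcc
IGF1R (chr15:98648389-98648538, plus strand): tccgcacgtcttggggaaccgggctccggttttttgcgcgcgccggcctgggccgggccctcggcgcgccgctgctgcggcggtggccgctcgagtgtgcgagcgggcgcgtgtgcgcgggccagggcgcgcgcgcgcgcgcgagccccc
MET (chr7:116672046-116672195, plus strand): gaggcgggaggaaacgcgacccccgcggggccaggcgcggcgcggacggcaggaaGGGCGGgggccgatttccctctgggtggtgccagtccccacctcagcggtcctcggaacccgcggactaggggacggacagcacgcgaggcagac

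A GC box was found in 7 of the 9 matched windows and in 36.8% of 35116 RefSeq promoter windows of the same length. INSR, MST1R and FGFR4 held 4 each, FGFR3 held 5, FGFR2 held 3, PTK7 held 2 and MET held 1, whereas IGF1R and DDR1 held none. Of the 9, IGF1R had the most CpG dinucleotides, 31, more than 99.7% of all windows, and DDR1 the fewest, 3, against a median of 7 over all windows. The DDR1 window lies before a RefSeq start inside the gene as the table spans it (chromosome 6, 30876421 to 30900154), so it is 1 of several possible starts. A CCAAT box (CCAAT on either strand) was found in FGFR2 alone and in 23.5% of all windows, and 0 of the 9 held a TATA box (TATAAA), against 6.71% of all windows. An AP-1 site (TGANTCA) was found in 0 of the 9 and in 4.17% of all windows, and likewise an E-box (CACGTG) in 0 and in 4.57%. These matches describe letters only.

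MET (ENSG00000105976, chromosome 7, 116672196 to 116798377, plus strand), the receptor of hepatocyte growth factor, was by far the most abundant of the 10. Its FPKM was 36.3, 33.4 and 35.5 in PLOD3 siRNA replicates 1 to 3 and 42.5, 36.9 and 43.1 in si NC replicates 1 to 3. Every PLOD3 siRNA sample was below every si NC sample, with si NC replicate 2 close to the PLOD3 siRNA samples. This gave a log2 fold change of -0.21 (95% interval -0.39 to -0.04, edgeR adjusted p = 0.06), which did not pass. Without si NC replicate 2 MET was called lower (adjusted p = 0.0314), and it was also called after the GC correction (log2 -0.40, adjusted p = 0.00577), whereas under TPM it stood at -0.11 (limma adjusted p = 0.405).

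MST1R (ENSG00000164078, chromosome 3, 49887002 to 49903873, minus strand), the receptor of macrophage stimulating protein and the closest relative of MET, was called lower. It had 4.97, 4.55 and 4.69 FPKM in PLOD3 siRNA and 6.83, 7.39 and 7.36 in si NC. The samples of each group lay within a narrow band and the bands were well apart. On the log2 scale the fold change was -0.60 (SE 0.083, edgeR adjusted p = 0.00442), -0.32 after the GC correction (adjusted p = 0.0211) and -0.23 with GC and length both removed, where MST1R no longer passed (adjusted p = 0.0592). The ratio of MET to MST1R FPKM was 7.30, 7.35 and 7.57 in PLOD3 siRNA and 6.22, 5.00 and 5.86 in si NC, without overlap (two-sided exact permutation p = 0.1, the smallest possible). The GC-corrected log2 fold changes of the pair were close, at -0.40 for MET and -0.32 for MST1R, so the difference in their ratio rests on uncorrected FPKM.

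Among the FGF receptors, FGFR4 was the most abundant in both groups. FGFR4 (ENSG00000160867, chromosome 5, 177086905 to 177098022, plus strand), the receptor of the intestinal hormone FGF19, had 7.98, 7.06 and 8.07 FPKM in PLOD3 siRNA and 12.3, 12.6 and 11.7 in si NC. All 3 PLOD3 siRNA samples were clearly below si NC. The log2 fold change was -0.66 (SE 0.072, edgeR adjusted p = 0.00268). It was called in all 20 alternative settings, although the GC correction brought it to -0.30 (adjusted p = 0.0158).

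FGFR3 (ENSG00000068078, chromosome 4, 1793293 to 1808872, plus strand), best known for its role in bone growth and bladder cancer, had 2.82, 2.72 and 2.92 FPKM in PLOD3 siRNA and 5.88, 4.31 and 4.23 in si NC. The PLOD3 siRNA samples lay close together and si NC replicate 1 stood above the other si NC samples. The fitted log2 fold change was -0.76 (SE 0.132, edgeR adjusted p = 0.008). The call held without each sample in turn (largest adjusted p 0.0328) but GC-corrected values did not pass (log2 -0.44, adjusted p = 0.0833).

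FGFR2 (ENSG00000066468, chromosome 10, 121478332 to 121598452, minus strand), whose epithelial splice form binds FGF7 and FGF10, had 1.35, 1.06 and 1.67 FPKM in PLOD3 siRNA and 2.03, 2.55 and 1.84 in si NC. The highest PLOD3 siRNA sample and the lowest si NC sample were close, and both groups were spread widely for their level. Its log2 fold change was -0.65 (SE 0.191, edgeR adjusted p = 0.0397). The call held only without PLOD3 siRNA replicate 3 (0.0316) among the fits that left out a sample. The adjusted p was 0.105 and 0.102 without PLOD3 siRNA replicates 1 and 2, and 0.0636, 0.1 and 0.0549 without si NC replicates 1, 2 and 3. The GC-corrected value was -0.65 with an adjusted p of 0.0499. Splice forms cannot be separated in a table of genes.

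FGFR1 (ENSG00000077782, chromosome 8, minus strand), the FGF receptor of mesenchymal cells, had 2.10, 2.01 and 2.28 FPKM in PLOD3 siRNA and 2.47, 2.39 and 2.29 in si NC. The highest PLOD3 siRNA sample nearly met the lowest si NC sample. The log2 fold change of -0.16 (95% interval -0.34 to 0.02) did not pass edgeR's test (adjusted p = 0.149). The sign turned after the GC correction (0.04, 95% interval -0.12 to 0.20, adjusted p = 0.672). FGFR1 overlaps LETM2 on the opposite strand by 9313 bases. LETM2 was higher in PLOD3 siRNA, at 1.37 ± 0.118 FPKM, against 0.915 ± 0.0978 in si NC (SD, n = 3 each, log2 0.59, edgeR adjusted p = 0.0187). LETM2 passed the filter of a mean FPKM of 1 only through PLOD3 siRNA. It lost its call after the GC correction (log2 0.38, edgeR adjusted p = 0.0632). Since no strand setting is given, some reads from the overlap may have been assigned to the wrong gene, and their number was not tested.

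The shares of 2 FGF receptors in the family's summed FPKM were compared, without a GC correction. Together the 4 receptors stood at 65.1% of their summed si NC FPKM. FGFR1 made up 14.7%, 15.6% and 15.3% of that sum in PLOD3 siRNA and 10.9%, 10.9% and 11.4% in si NC, with no overlap (two-sided exact permutation p = 0.1, the smallest possible). The share of FGFR4 was 56.0%, 54.9% and 54.0% in PLOD3 siRNA and 54.3%, 57.8% and 58.3% in si NC, and these ranges overlapped (two-sided exact permutation p = 0.3).

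The insulin receptor pair was lower by similar amounts. INSR (ENSG00000171105, chromosome 19, 7112255 to 7294414, minus strand), the receptor of insulin, had 2.37, 2.09 and 2.18 FPKM in PLOD3 siRNA and 3.44, 3.32 and 3.78 in si NC. Both groups were tight and far apart. The log2 fold change was -0.66 (SE 0.0879, edgeR adjusted p = 0.00402) and also -0.66 after the GC correction (adjusted p = 0.00449). IGF1R (ENSG00000140443, chromosome 15, 98648539 to 98964530, plus strand), which carries the growth signal of the insulin-like growth factors, had 0.814, 0.803 and 0.953 FPKM in PLOD3 siRNA and 1.37, 1.48 and 1.42 in si NC. It was the least abundant of the 10 in both groups, and it passed the filter of a mean FPKM of 1 only through si NC. On the log2 scale the fold change was -0.73 (SE 0.101, edgeR adjusted p = 0.00444) and -0.66 after the GC correction (adjusted p = 0.00613). Both genes were called lower in all 19 alternatives that gave them a value. The ratio of INSR to IGF1R FPKM was 2.92, 2.60 and 2.29 in PLOD3 siRNA and 2.52, 2.25 and 2.66 in si NC, and it overlapped between the groups (two-sided exact permutation p = 0.6).

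DDR1 (ENSG00000204580, chromosome 6, 30876421 to 30900154, plus strand), an epithelial receptor whose ligand is fibrillar and basement membrane collagen, had 8.97, 6.69 and 7.42 FPKM in PLOD3 siRNA and 11.3, 11.5 and 15.8 in si NC. Samples varied more than for most of the others, with si NC replicate 3 high and PLOD3 siRNA replicate 2 low, yet the groups did not overlap. edgeR put the log2 fold change at -0.74 (SE 0.164, edgeR adjusted p = 0.0164). The call was lost without PLOD3 siRNA replicate 2 (adjusted p = 0.0549) and after the GC correction (log2 -0.42, 95% interval -0.85 to 0.01, adjusted p = 0.125). The second collagen receptor, DDR2, was below the filter at 0.235 ± 0.0632 FPKM in PLOD3 siRNA and 0.263 ± 0.00946 in si NC (SD, n = 3 each).

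PTK7 (ENSG00000112655, chromosome 6, 43076307 to 43161715, plus strand) had the lowest fold change of the 10. Its FPKM was 8.67, 7.26 and 7.39 in PLOD3 siRNA and 15.1, 15.9 and 15.3 in si NC. The groups were far apart beside their spread. The log2 fold change was -0.98 (SE 0.0856, edgeR adjusted p = 0.00202), lower than that of all but 2.48% of tested genes. It was called in all 20 alternatives, with -0.69 after the GC correction (adjusted p = 0.00408) and -0.61 with GC and length both removed (adjusted p = 0.00491).

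In si NC the order of levels was MET, PTK7, DDR1, FGFR4, MST1R, FGFR3, INSR, FGFR1, FGFR2 and IGF1R on the FPKM scale, which is per length. The ranges of neighbours overlapped for PTK7 and DDR1, for DDR1 and FGFR4, and for FGFR1 and FGFR2. In PLOD3 siRNA the order was the same but for FGFR4 and DDR1, whose levels overlapped, and the overlapping neighbours were PTK7, FGFR4 and DDR1, and INSR and FGFR1. The 10 genes summed to 76.4, 67.7 and 73.0 FPKM in PLOD3 siRNA and 103, 98.4 and 107 in si NC. MET made up 48.5% ± 0.932 of that sum in PLOD3 siRNA and 39.7% ± 1.92 in si NC (SD, n = 3 each). The other 9 genes together stood at 60.2% of their si NC level. These sums are not GC-corrected, and after the GC correction the log2 fold change of MET, -0.40, was close to the median of the 10 genes, -0.43.

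**Figure D4:**
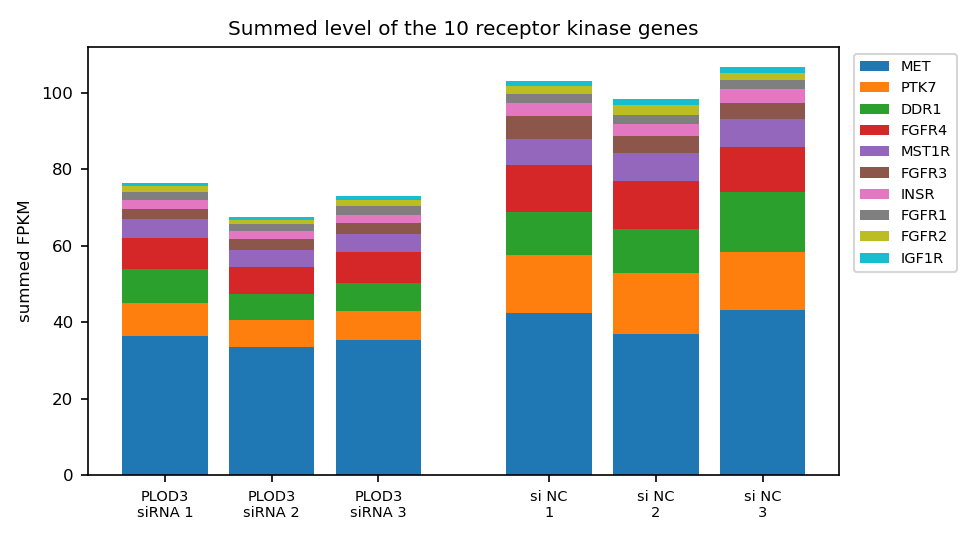
Summed FPKM of the 10 receptor genes in each sample, stacked by gene, the 3 PLOD3 siRNA samples on the left and the 3 si NC samples on the right. The stacks reach 67.7 to 76.4 in PLOD3 siRNA and 98.4 to 107 in si NC, and MET (the lowest segment) takes 48.5% and 39.7% of them on average.

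Most tested genes among the ligands, their activators and their binding proteins were lower as well. Of 35 ligands, activators and binding proteins, 24 had a mean FPKM under 1, and of the 11 tested 7 fell (63.6%) and 1 rose, with a median log2 fold change of -0.69. Here and in the lists below, fell and rose mean called lower and called higher by edgeR. Among all tested genes these shares were 19.3% and 16.2%. FGF19, the hormone that acts on FGFR4, fell to 7.43, 7.89 and 8.76 FPKM in PLOD3 siRNA replicates 1 to 3, against 17.7, 18.2 and 16.6 in si NC (log2 -1.12, SE 0.0962, edgeR adjusted p = 0.00202). IGF2, a ligand of IGF1R and INSR, fell to 1.85 ± 0.199 FPKM in PLOD3 siRNA, against 4.51 ± 0.599 in si NC (SD, n = 3 each, log2 -1.28), and its level is uncertain because it shares exons with the readthrough gene INS-IGF2. SPINT1, an inhibitor of the proteases that activate hepatocyte growth factor, fell to 13.2 ± 0.461 FPKM in PLOD3 siRNA, against 25.7 ± 1.91 in si NC (n = 3 each, log2 -0.96). FURIN, which cleaves the precursors of MET, INSR and IGF1R, fell to 9.68 ± 0.133 FPKM in PLOD3 siRNA, against 16.5 ± 1.55 in si NC (n = 3 each, log2 -0.77). These 4 kept their calls in all 6 fits that left out a sample and after the GC correction. ST14 (matriptase), a protease that activates hepatocyte growth factor, was called lower (log2 -0.29, edgeR adjusted p = 0.0344), but its sign turned after the GC correction (0.0586, adjusted p = 0.423). FGF2 rose to 1.29 ± 0.0834 FPKM in PLOD3 siRNA, against 0.851 ± 0.183 in si NC (n = 3 each, log2 0.61). FGF2 passed the filter of a mean FPKM of 1 only through PLOD3 siRNA, the group where it was higher. Its edgeR adjusted p was 0.0323, and the call held without si NC replicate 1 or 2 (0.0414 and 0.0369) and was lost without si NC replicate 3 (0.0592), without PLOD3 siRNA replicates 1, 2 and 3 (0.0859, 0.0672 and 0.0729) and after the GC correction (0.0997). Of the ligands of MET and MST1R, HGF stood at 0.0589 ± 0.028 FPKM in PLOD3 siRNA and 0.331 ± 0.247 in si NC, and MST1 at 0.236 ± 0.128 and 0.313 ± 0.0471 (n = 3 each), all below the filter. IGF1 and INS were listed without reads in all samples.

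Of 16 coreceptors, membrane partners, sheddases and relatives, 11 were tested, 4 fell (36.4%, against 19.3% of all tested genes) and 0 rose, with a median of -0.29. No gene of this list was higher at an unadjusted p under 0.05 in edgeR, or called higher by DESeq2 or by limma. With the GC correction 3 of the 11 were called lower, against 14.5% of all tested genes. In that fit 1 was called higher, the heparan sulfate proteoglycan SDC1 (log2 0.31, edgeR adjusted p = 0.0227). With GC and length both removed 3 were called higher, SDC1, PLXNB1 and GPC1. ITGB4, an integrin that forms complexes with MET, fell to 12.6 ± 2.20 FPKM in PLOD3 siRNA, against 27.5 ± 1.86 in si NC (SD, n = 3 each). CD44, a hyaluronan receptor whose variant forms present growth factor to MET, fell to 14.9 ± 1.08 FPKM in PLOD3 siRNA, against 26.1 ± 8.42 in si NC (n = 3 each, log2 -0.80, edgeR adjusted p = 0.0264), and its call held without si NC replicate 1 (0.0251) or 3 (0.02) and in none of the other 4 fits that left out a sample. The plexin PLXNB2 (log2 -0.45) and the membrane protease MMP14 (log2 -0.50), which cleaves PTK7, also fell, and both lost their calls after the GC correction (adjusted p = 0.257 and 0.132). MMP14 kept its call only without PLOD3 siRNA replicate 3 (0.0496) or si NC replicate 1 (0.0119). KLB, which FGFR4 needs to respond to FGF19, was at 0.0703 ± 0.0227 FPKM in PLOD3 siRNA and 0.0442 ± 0.0249 in si NC (n = 3 each), below the filter. FGFRL1, an FGF receptor without a kinase domain, stood at 12.3 ± 5.21 and 23.0 ± 5.11 (n = 3 each) and did not pass (edgeR adjusted p = 0.0993).

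Of 32 docking proteins and proximal signalling genes, 22 were tested, 7 fell (31.8%, against 19.3% of all tested genes) and 2 rose, with a median of -0.19. After the GC correction 5 of the 22 were called lower and 0 higher, against 14.5% of all tested genes called lower. IRS1, the main docking protein of INSR and IGF1R, fell to 8.80 ± 0.862 FPKM in PLOD3 siRNA, against 13.3 ± 0.715 in si NC (SD, n = 3 each, log2 -0.59, edgeR adjusted p = 0.00399). STAT3, a transcription factor that MET and other receptors activate, fell by 0.78 on the log2 scale, the adaptor NCK2 by 0.90 and the PI3-kinase regulatory subunit PIK3R2 by 1.03. The rises were those of FRS2, the docking protein of FGF receptors (log2 0.71), and of the adaptor NCK1 (0.42). FRS2 was at 1.67 ± 0.286 FPKM in PLOD3 siRNA and 1.02 ± 0.167 in si NC (n = 3 each). It lost its call without PLOD3 siRNA replicate 1 or 3 (0.0639 and 0.051) and after the GC correction (0.0804). With 1 sample left out at a time, NCK1 passed without si NC replicate 1 (0.0291) and in no other such fit, and it did not pass with GC removed (0.66). GRB2, PTPN11, SOS1 and PIK3CA, shared by nearly all of these receptors, did not pass, with log2 fold changes of -0.15, 0.24, 0.10 and 0.10.

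Of 31 receptor inhibitors, phosphatases and degradation genes, 27 were tested, 12 fell (44.4%, against 19.3% of all tested genes) and 3 rose, with a median of -0.34. GRB10, an adaptor that restrains INSR and IGF1R, fell to 1.73 ± 0.0731 FPKM in PLOD3 siRNA, against 3.22 ± 0.162 in si NC (SD, n = 3 each, log2 -0.89, edgeR adjusted p = 0.002). IL17RD (also called SEF), an inhibitor of FGF receptor signalling, fell by 0.77 on the log2 scale, the receptor phosphatase PTPRF by 0.73 and the adaptor GRB7 by 0.90, and all 4 kept their calls after the GC correction. NEDD4, a ubiquitin ligase of IGF1R and other receptors, rose to 1.82 ± 0.126 FPKM in PLOD3 siRNA, against 1.18 ± 0.136 in si NC (n = 3 each, log2 0.62, edgeR adjusted p = 0.00787). MDM2 (0.47), best known as the ligase of p53, and LRIG3 (0.40) also rose, and both lost their calls after the GC correction (adjusted p = 0.0771 and 0.0701). LRIG3 kept its call only without PLOD3 siRNA replicate 2 (0.0407). MDM2 lost it without PLOD3 siRNA replicate 1 or 3 (0.0717 and 0.0599) or si NC replicate 3 (0.0611).

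Of 23 planar polarity and Wnt partners of PTK7, 15 were tested, 6 fell (40.0%, against 19.3% of all tested genes) and 0 rose, with a median of -0.24. None was higher at an unadjusted p under 0.05 in edgeR, or called higher by DESeq2 or by limma. After the GC correction 4 of the 15 were called lower, against 14.5% of all tested genes. With GC and length both removed, 2 were called lower (FZD7 and CELSR2), against 13.6% of all tested genes, and 2 higher (SCRIB and DVL1). DVL1 was among the 6 that fell (log2 -0.23, edgeR adjusted p = 0.0484). Its sign also turned with the GC correction alone (log2 0.197, adjusted p = 0.0539). DVL1 passed in 4 of 20 alternatives, among them its call in the other direction, and never when a single sample was dropped. The Wnt receptor FZD7 fell to 2.79 ± 0.13 FPKM in PLOD3 siRNA, against 5.79 ± 0.161 in si NC (SD, n = 3 each, log2 -1.05), and the seven-pass cadherin CELSR2 fell by 1.10 on the log2 scale. CELSR1 (-0.53) and the receptor ROR2 (-0.48) fell as well, but neither passed once GC was removed (edgeR adjusted p = 0.0899 and 0.0771). The core polarity gene VANGL1 (-0.21) and the PTK7-like pseudokinase RYK (0.12) did not pass.

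Most of the other receptor tyrosine kinases that were tested were lower as well. Of 48 such genes, which include DDR2, ROR2 and RYK of the lists above, 18 were tested. Of these, 14 fell (77.8%, against 19.3% of all tested genes) and 0 rose, with a median of -0.46. None was higher at an unadjusted p under 0.05 in edgeR or called higher by DESeq2 or by limma. EPHA1 (log2 -0.80), EGFR (-0.71), EPHB4 (-0.68) and ERBB2 (-0.57) had the smallest p among them. AXL, a receptor of the protein GAS6, stood at 8.51 ± 0.462 FPKM in PLOD3 siRNA and 8.18 ± 0.841 in si NC (SD, n = 3 each) and did not pass (edgeR adjusted p = 0.664). After the GC correction 9 of these 18 were called lower, against 7 of the 10 receptors described here and 14.5% of all tested genes. With GC and length both removed, 5 of the 18 were called lower, against 13.6% of all tested genes, and 1 was called higher. The difference between the lists was not tested.

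**Figure D5:**
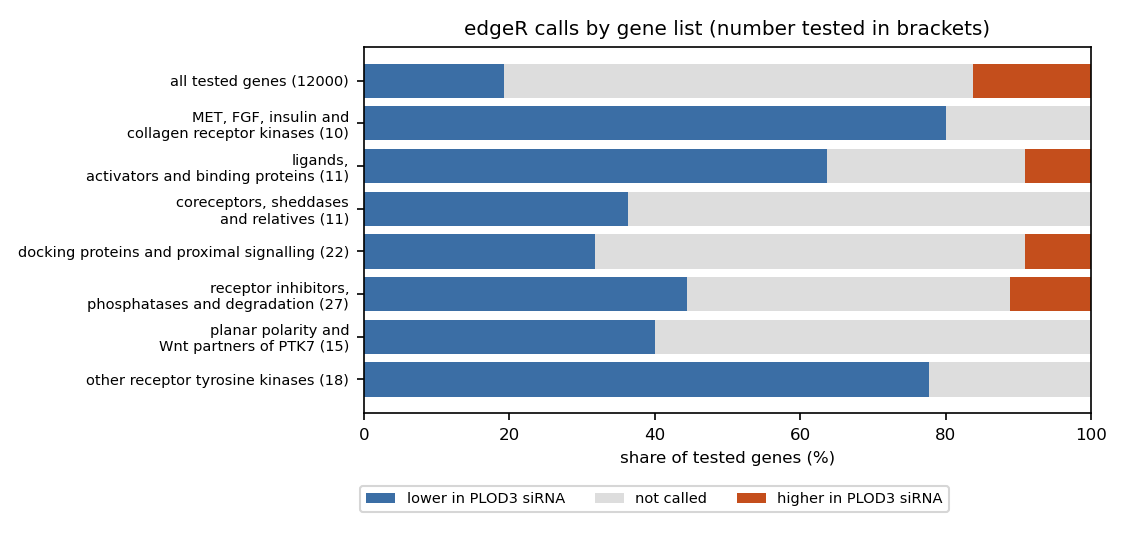
Share of tested genes called lower (blue), not called (grey) or called higher (orange) in PLOD3 siRNA by edgeR, for all tested genes and each list, with the number tested in brackets. Called lower were 19.3% of all tested genes, 80.0% of the 10 receptors and 77.8% of the other receptor tyrosine kinases.

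Genes with the profile most like that of a receptor were taken as those with the smallest root mean square difference, over the 6 samples, of log2(FPKM + 1) centred on the gene's mean. Nearest to MST1R was DGKQ (0.0113), to FGFR4 DGLUCY (0.0156), to FGFR1 ALAS1 (0.015), to IGF1R CTBP1 (0.0211, with a log2 fold change of -0.38, against -0.73 for IGF1R), to MET TAOK3 (0.0231), to INSR CDON (0.0233) and to FGFR2 TM7SF2 (0.0348). Less close were the nearest genes to FGFR3, INPPL1 (0.0443), to PTK7, C1QL4 (0.0519) with HSPG2 next (0.0533), and to DDR1, TNRC18 (0.0854). INPPL1 is an inositol phosphatase, and it stands in the list of inhibitors above, where it was among the 12 that fell. These distances are descriptions, since the 6 samples share the group difference.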

How the data were processed

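RNA-seq of 6 HCT116 samples was taken from 1 deposited table. Ribosomal RNA was depleted before library construction, per the labels' protocols. Tools named in the submitters' processing notes are HISAT2 2.0.4, StringTie 1.3.4d and cutadapt 1.9. Build, annotation, strand setting and counting step: not given in the sources used here. The authors deposited FPKM, with 0.0001 for genes without reads, and estimated counts as whole numbers, unscaled between samples, per the file headers. Low counts piled up at multiples of 4 (on average 1490 genes at 4, 558 at 3 and 312 at 5). Of the table's genes, 96.3% matched GENCODE release 29 (GRCh38) by identifier and 99.98% of those overlapped its positions, so coordinates were read as GRCh38; 0 value columns were left unmapped.

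The deposited counts were whole and needed no rounding. The 12000 genes whose mean FPKM reached 1 were tested with edgeR 4.0.16 in R 4.3.3 (TMM, quasi-likelihood, two-sided, Benjamini-Hochberg adjusted over all 12000, no covariate). Intervals are 95%. DESeq2 1.42.0, limma 3.58.1 and other settings were alternatives. GC correction removed a loess trend (span 0.5) per sample on GC of the longest coding transcript (11968 genes with a value). Receptors and lists were chosen with earlier results of these data known, and the lists are described by counts and medians only. Named by rule were the receptors, the up to 4 called genes of each list with the smallest p, all called genes where 5 or fewer were called in a direction, and the nearest profiles, of which the first is given for each receptor. CD68, ESAM and other markers, HGF, MST1, ST14, SDC1, PLXNB1, GPC1, SCRIB, DVL1, KLB, DDR2, FGFRL1, AXL and the uncalled genes in the lists were named for their roles after their values were seen, as was HSPG2.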

Additional observations from a re-analysis of the deposited data

How the results depend on the processing

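PTK7 and FGFR4 were called lower in all 20 alternatives, and INSR and IGF1R in all 19 that gave them a value. The number of receptors called lower was 8, between 6 and 8 when 1 sample was left out, and 5 at a mean FPKM of at least 5 (where only 5 were tested), with the GC and length correction, and with the replicate block and GC correction together. The log2 fold change of FGFR1, -0.16, turned to 0.0416 with the GC correction, 0.17 with GC and length, and 0.0416 with the block and GC; the cause was not tested. MST1R was called in 18 of 20 alternatives, FGFR3 in 16 of 19, DDR1 in 16 of 20, MET in 6 of 20 and FGFR2 in 6 of 19. Over all tested genes, 1945 were higher and 2319 lower, with 1083 to 1651 and 1509 to 2011 when 1 sample was left out. They were 1192 and 1354 at a mean FPKM of at least 5, 1070 and 1227 with the block and GC, and 2470 and 1461 in limma on TPM.

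No pairing by replicate number was seen in the values: deviations of same-numbered samples correlated at 0.05, -0.01 and -0.02 across genes. Whether same-numbered samples were handled together is not in the labels, and these correlations cannot settle it. With the replicate block, 7 receptors were called lower, against 15.3% of tested genes, and FGFR2 lost its call at the same log2 fold change of -0.65 (adjusted p = 0.0988).

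Counts in the lists also moved. Over all tested genes the share called lower was 19.3%, and it was 14.5% with the GC correction and 13.6% with GC and length. Other receptor tyrosine kinases called lower numbered 14, but 9 with the GC correction and on TPM, 5 with GC and length and at a mean FPKM of at least 5, and 4 with the block and GC. Coreceptors called lower numbered 4, but 2 with the block and GC and without PLOD3 siRNA replicate 1 or 2. Docking genes called lower numbered 7, but 4 with GC and length. PTK7 partners called lower numbered 6, but 2 with GC and length (where 2 were called higher) and 3 with the block and GC. Between 0 and 3 genes were called higher in each list, without any alternative and in every alternative. The lowest receptor count, in FGFR2, would stand for about 134 read pairs if 4 units are 1 pair.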

Other observations

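Of 78 genes of the lists that fell outside the tests because their mean FPKM was under 1, the groups did not overlap in 15 that were lower in PLOD3 siRNA and 2 that were higher. The same share over all genes under the filter was not computed. Among the tested genes the groups did not overlap in 27.5% that were lower and 24.6% that were higher. The counts are therefore not read as a result about the lists. RET, the receptor of GDNF family ligands, had 0.610, 0.521 and 0.549 FPKM in PLOD3 siRNA and 1.26, 1.40 and 1.33 in si NC. IRS2, the second docking protein of the insulin receptor, had 0.760, 0.650 and 0.733 FPKM in PLOD3 siRNA and 0.963, 1.19 and 1.00 in si NC. WNT11, a ligand of the planar polarity branch of Wnt signalling, had 0.456, 0.290 and 0.512 FPKM in PLOD3 siRNA and 0.961, 1.03 and 0.702 in si NC. The 2 higher ones were PIK3R1, a regulatory subunit of PI3-kinase, with 0.732, 1.00 and 1.04 FPKM in PLOD3 siRNA and 0.710, 0.647 and 0.690 in si NC, and PLXNB3, a plexin, with 0.391, 0.348 and 0.573 in PLOD3 siRNA and 0.316, 0.281 and 0.301 in si NC. These genes were chosen after their values were seen.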
